A study of Mus musculus with 36 samples.

Results

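During the differentiation of brown pre-adipocytes into fat cells, 147 protein-coding genes were low at day 2 and higher on both sides of it, at day 0 and at day 6. They are 147 of the 55536 genes listed in the files, of which 22028 are protein-coding. The genes were chosen by their day values. Counts were scaled to the same library total (CPM) and averaged over the 12 libraries of each day. Of the protein-coding genes, 8591 had means of at least 10 CPM at both day 0 and day 6, and these were ranked by the smaller of the ratios (day 0 + 1)/(day 2 + 1) and (day 6 + 1)/(day 2 + 1). The first 150 were taken, and 3 collagen genes among them, with ratios from 3.37 to 6.47, were left out by name. Since the day means chose the genes, the day values of the members are a description and carry no test.

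The 36 libraries came from immortalized mouse cell lines, and every line carried a Cas9 disruption of the endogenous Rxra gene (Rxra-/-). RXRα, its product, is a nuclear receptor that pairs with PPARγ, the master regulator of fat cell formation. A retrovirus returned either the wild-type receptor (RxraWT) or a receptor with alanine at residue 22, which cannot be phosphorylated there (RxraSA). Each was put into 2 monoclonal lines, clone 48 and clone 66, and each clone, genotype and day had 3 replicates, so that a day had 12 libraries and a genotype 6 per day. Day 0 cells were confluent pre-adipocytes kept in insulin and triiodothyronine. Dexamethasone, isobutylmethylxanthine and indomethacin were then present up to day 2 and were absent from day 2 to day 6, so that the day of sampling and the medium changed together and cannot be told apart. Clone 48 went into sequencing pool 1 and clone 66 into pool 2, so that clone and pool cannot be told apart either.

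Fat cell formation in culture is commonly started with such a cocktail. Dexamethasone is a synthetic glucocorticoid, a class of hormone known for damping interferon and inflammatory genes, and isobutylmethylxanthine keeps cyclic AMP high. In the course of differentiation, pre-adipocytes are known to take down stress fibres and fibronectin-rich matrix and to switch on genes of lipid storage.

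Library totals ran from 11351078 to 24349263 counts, with a median of 18338726. Rxra itself had a median of 187 CPM at day 0, 511 CPM at day 2 and 228 CPM at day 6, a count that does not separate the disrupted gene from the retroviral copy. The 20 adipocyte markers examined summed to a median of 2121 CPM at day 0, 10901 CPM at day 2 and 16464 CPM at day 6. Ucp1, which defines the thermogenic brown fat cell, stayed at or below 0.309 CPM in every library, and Cidea at or below 1.67 CPM. Of 7 macrophage and leukocyte markers, Ptprc, Adgre1 and Itgam did not exceed 0.0639 CPM in any library. Others of the 7 were detected at day 0, where Cd68 ran from 4.66 to 11.6 CPM, Lyz2 reached 4.77 CPM and Csf1r 1.11 CPM. One library stood apart: in clone 48 RxraSA replicate 1 at day 0, the library of lowest total, the single gene Lars2 took 3.06% of all counts.

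The ratio of the members ran from 11.2 (Gstm2) to 2.66 (Mpp2), with a median of 3.28, against a median of 0.905 over all 8591 ranked genes. Apart from Lars2, the members together made up a median of 11625 CPM at day 0 (range 10302 to 12530), 1820 CPM at day 2 (range 1570 to 2156) and 8392 CPM at day 6 (range 7589 to 9563). In bulk RNA fewer cells that express a gene and less RNA of it per cell cannot be told apart. In 119 of the 147 genes every day 2 library lay below every library of both other days, as was the case for 4.41% of the 16723 genes with enough counts to be tested. Just inside the limit of the ranking stood Ifitm3 (2.67), Psrc1 (2.66) and Mpp2 (2.66), and just outside it Serpinb8 (2.65), Ttyh3 (2.64) and Il10rb (2.64).

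**Figure D1:**
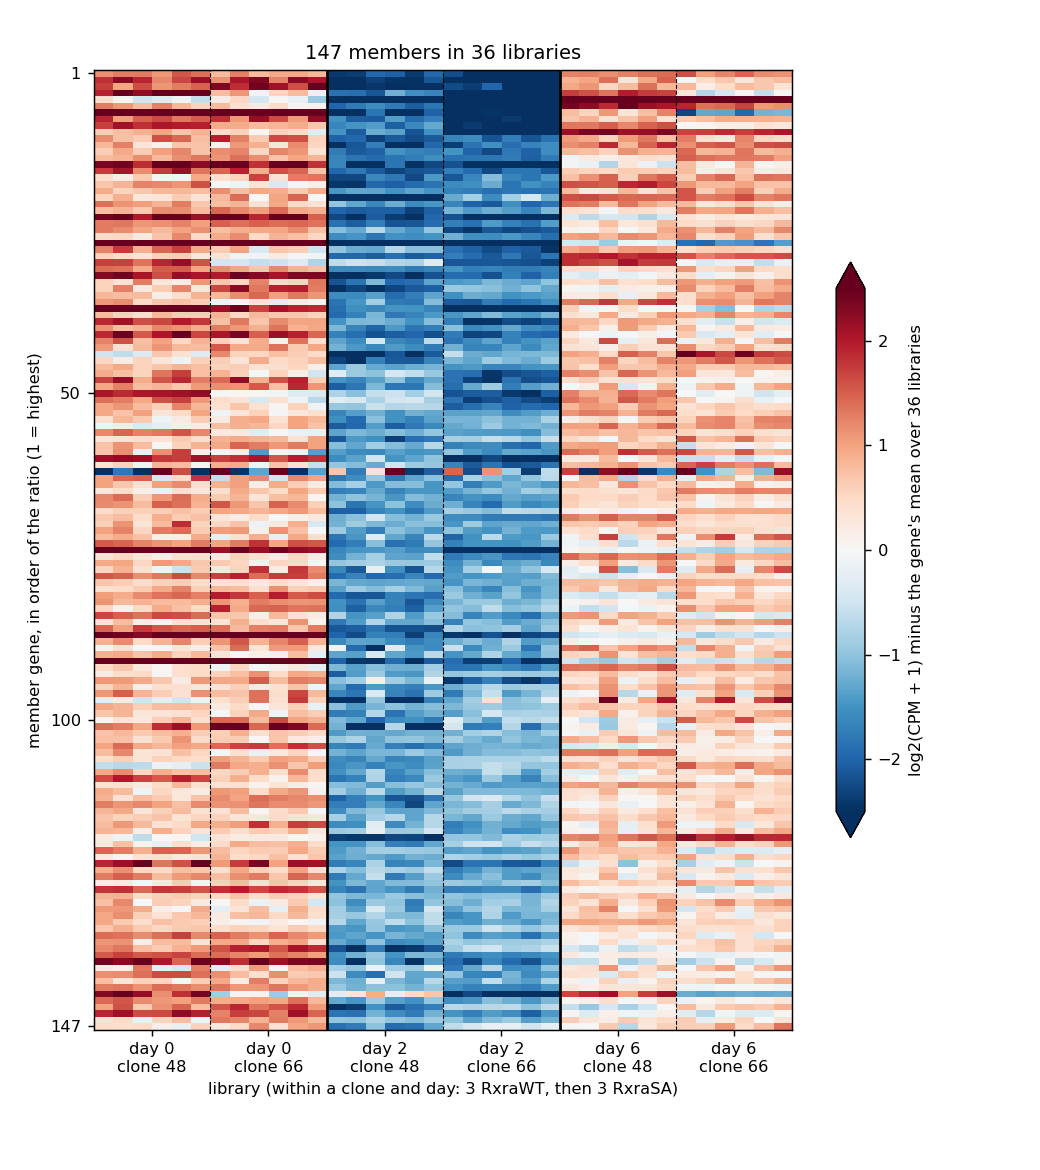
Each row is 1 of the 147 members in order of their ratio and each column 1 of the 36 libraries, grouped by day (solid lines) and clone (dashed lines). Colour gives log2(CPM + 1) minus the gene's mean over all libraries, clipped at 2.5 in either direction; the 12 columns of day 2 are blue in nearly every row, and the row of mixed colour above the middle is Lars2.

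The members did not all return to the same place. The day 6 mean stood above the day 0 mean in 50 genes and below it in 97, and the median ratio of day 6 to day 0 was 0.859. Between day 0 and day 6, 108 members differed by less than 2-fold in their means. In 33 members the day 6 mean was at most 0.5 of that at day 0, and in 6 members at least 2 times it. Sncg, which encodes the synuclein found in neurons and fat cells, went furthest beyond its starting level: its median was 10.7 CPM at day 0, 0.371 CPM at day 2 and 130 CPM at day 6. Cldn15, a tight junction claudin, and Ccdc80, a secreted matrix protein of adipose tissue, followed with day 6 means 3.16 and 2.78 times those of day 0. At the other end were Ogn, Thbs1 and Ifit2, with day 6 means of 0.0285, 0.0905 and 0.0911 of those at day 0. Ogn, the small proteoglycan osteoglycin, ran from 276 to 708 CPM at day 0, from 0.825 to 3.01 CPM at day 2 and from 4.83 to 20.9 CPM at day 6. Its return was thus clear of day 2 in every library but very small beside its level at day 0.

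**Figure D2:**
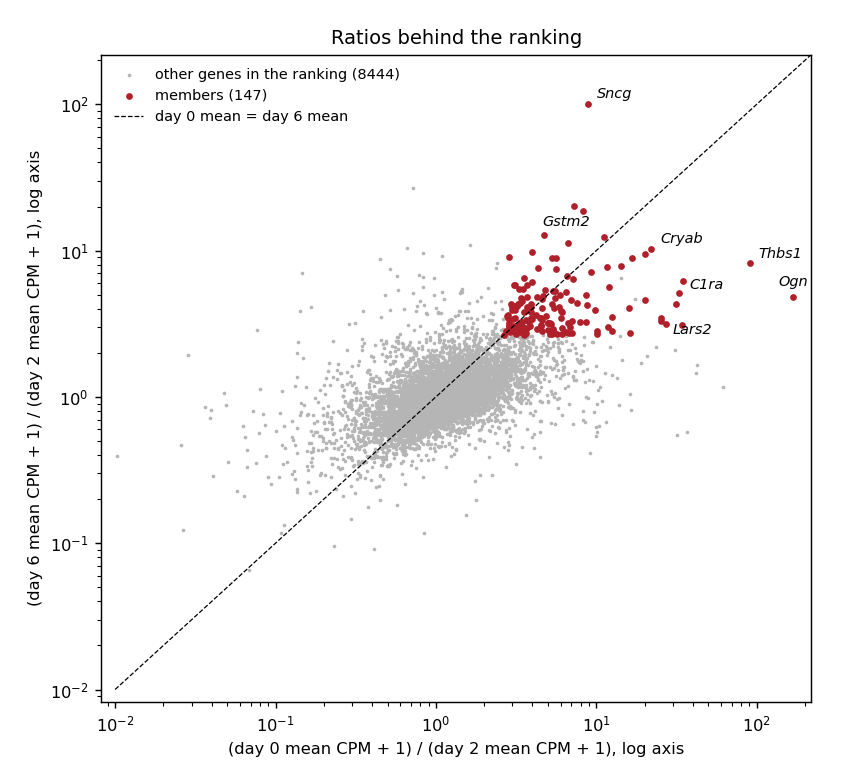
Each point is a gene of the ranking, placed by its ratio of day 0 to day 2 (x axis) and of day 6 to day 2 (y axis), both of mean CPM + 1 on log axes; red points are the 147 members and grey points the other genes of the ranking. Members below the dashed line came back to less than their day 0 mean (97 genes, with Ogn and Thbs1 farthest to the right), and members above it went beyond that mean (50 genes, with Sncg at the top).

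Lars2, the mitochondrial leucyl-tRNA synthetase, owed its day 0 mean of 2891 CPM mostly to the library that stood apart. It had 30572 CPM there and from 9.39 to 1955 CPM in the other 11 day 0 libraries. Its ratio of day 0 to day 2 was 25.4 with that library and 3.30 without it. Its levels also overlapped across days, from 15.5 to 485 CPM at day 2 and from 9.90 to 2038 CPM at day 6. Lars2 remained among the chosen genes when that library was left out and fell from the list when clone 66 RxraWT replicate 1 of day 6 was left out.

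Sorted by what their products do, 82 of the members fell into 8 groups, which were put together after the values had been seen. The group with the highest median ratio, 5.31, was that of 7 detoxifying enzymes. Gstm2, a glutathione transferase of the mu class, headed the whole ranking. Its lowest, median and highest values were 62.8, 78.7 and 106 CPM at day 0, 4.49, 5.95 and 8.50 CPM at day 2, and 73.9, 86.5 and 112 CPM at day 6. Ephx1, the microsomal epoxide hydrolase, ran from 123 to 186 CPM at day 0, from 21.8 to 33.3 CPM at day 2 and from 98.2 to 249 CPM at day 6. Akr1c14, an aldo-keto reductase that acts on steroids, had medians of 116, 2.41 and 20.3 CPM on the 3 days and so regained only a part of its first level. In these 3 genes no day 2 library reached the range of either other day.

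Other glutathione transferases were of both kinds. The mu class genes Gstm1, Gstm5, Gstm6 and Gstm7 also had their lowest mean at day 2 (335.6, 90.5 and 235 CPM for Gstm1 on the 3 days). Gstm4 showed no clear dip, with medians of 1.67, 2.31 and 3.79 CPM and overlapping ranges. Mgst3 (211, 1042 and 306 CPM) and Gsto1 (68.6, 227 and 119 CPM) had their highest mean at day 2. The Gstm and Gstt genes resemble each other in sequence, and read pairs that matched several places were not counted, so their levels are uncertain.

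Lipid genes made up 9 members, among them all 3 genes of the fatty acid desaturase cluster on chromosome 19 (GRCm38, positions 10041569 to 10196877). Fads1 and Fads2 are the desaturases that make polyunsaturated fatty acids, and Fads3 acts on sphingoid bases. Fads1 ran from 199 to 268 CPM at day 0, from 37.7 to 69.1 CPM at day 2 and from 173 to 350 CPM at day 6. Fads2 ran from 134 to 279 CPM, from 25.5 to 79.3 CPM and from 214 to 434 CPM on the same days. Fads3 had medians of 132, 34.4 and 153 CPM. The ranges of day 2 lay below those of the other days in all 3 genes. The stearoyl-CoA desaturase Scd1, by contrast, had a mean of 388 CPM at day 0, 2730 CPM at day 2 and 10510 CPM at day 6. Fdft1, squalene synthase, had medians of 153, 27.2 and 108 CPM. Of the 22 other cholesterol synthesis and uptake genes tested, 12 were lower and 4 higher at day 2 than at day 0, and 14 were higher and 6 lower at day 6 than at day 2. Of all tested genes, 37.5% were lower and 35.8% higher at day 2 than at day 0, and 31.9% were higher and 30.1% lower at day 6 than at day 2.

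The matrix group held 13 members with a median ratio of 3.90. Thbs1, the matricellular protein thrombospondin-1, ran from 501 to 1303 CPM at day 0, from 3.99 to 20.6 CPM at day 2 and from 14.5 to 179 CPM at day 6, and its day 2 and day 6 ranges overlapped. Fn1, fibronectin, ran from 150 to 719 CPM, from 24.3 to 279 CPM and from 247 to 1170 CPM, and its ranges overlapped as well. Ccdc80 ran from 22.8 to 56.6 CPM, from 0.825 to 11.3 CPM and from 93.1 to 153 CPM, with no overlap. Htra1, a secreted serine protease that cleaves matrix proteins, had medians of 29.5, 1.55 and 20.1 CPM. Tinagl1, Srpx2 and Lrrc17, further secreted proteins, had day 0 medians of 116, 156 and 251 CPM, day 2 medians of 4.49, 4.75 and 8.35 CPM and day 6 medians of 24.0, 18.6 and 30.7 CPM.

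The contractile and membrane cytoskeleton contributed 12 members, many of them known from muscle, which had a median ratio of 4.21. Cryab, the small heat shock protein αB-crystallin that protects desmin and other filaments, ran from 20.5 to 48.1 CPM at day 0, from 0.311 to 1.21 CPM at day 2 and from 9.14 to 26.1 CPM at day 6. Mylk, myosin light chain kinase, ran from 10.9 to 45.6 CPM, from 1.84 to 5.53 CPM and from 24.3 to 59.5 CPM. Csrp1, a LIM protein of stress fibres, ran from 152 to 267 CPM, from 55.1 to 87.5 CPM and from 185 to 299 CPM. Myof, the membrane repair protein myoferlin, had medians of 509, 29.5 and 68.9 CPM. In all 4 genes day 2 lay below both other days in every library. The muscle determination genes Myod1, Myf5 and Pax7 reached at most 0.108 CPM in any library, and Des, desmin, had medians of 2.69, 0.672 and 19.8 CPM. The part of other cell types in these values was not tested.

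The remaining highest ranks went to genes of varied function. Aqp5, a water channel of secretory epithelia, ran from 14.2 to 46.9 CPM at day 0, from 0.124 to 0.929 CPM at day 2 and from 7.58 to 18.7 CPM at day 6. Slc40a1, the iron exporter ferroportin, ran from 11.8 to 32.0 CPM, from 0.709 to 1.88 CPM and from 9.38 to 20.6 CPM. Palm, the membrane protein paralemmin, ran from 60.6 to 139 CPM, from 5.77 to 19.1 CPM and from 102 to 218 CPM. Ranbp3l, a Ran-binding protein that exports SMAD proteins from the nucleus, had medians of 52.2, 2.82 and 30.3 CPM, and Lctl, a klotho-related membrane protein, of 20.8, 1.47 and 49.2 CPM. Day 2 values this low rest on few counts, and in 3 members at least 1 day 2 library held 3 counts or fewer.

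**Figure D3:**
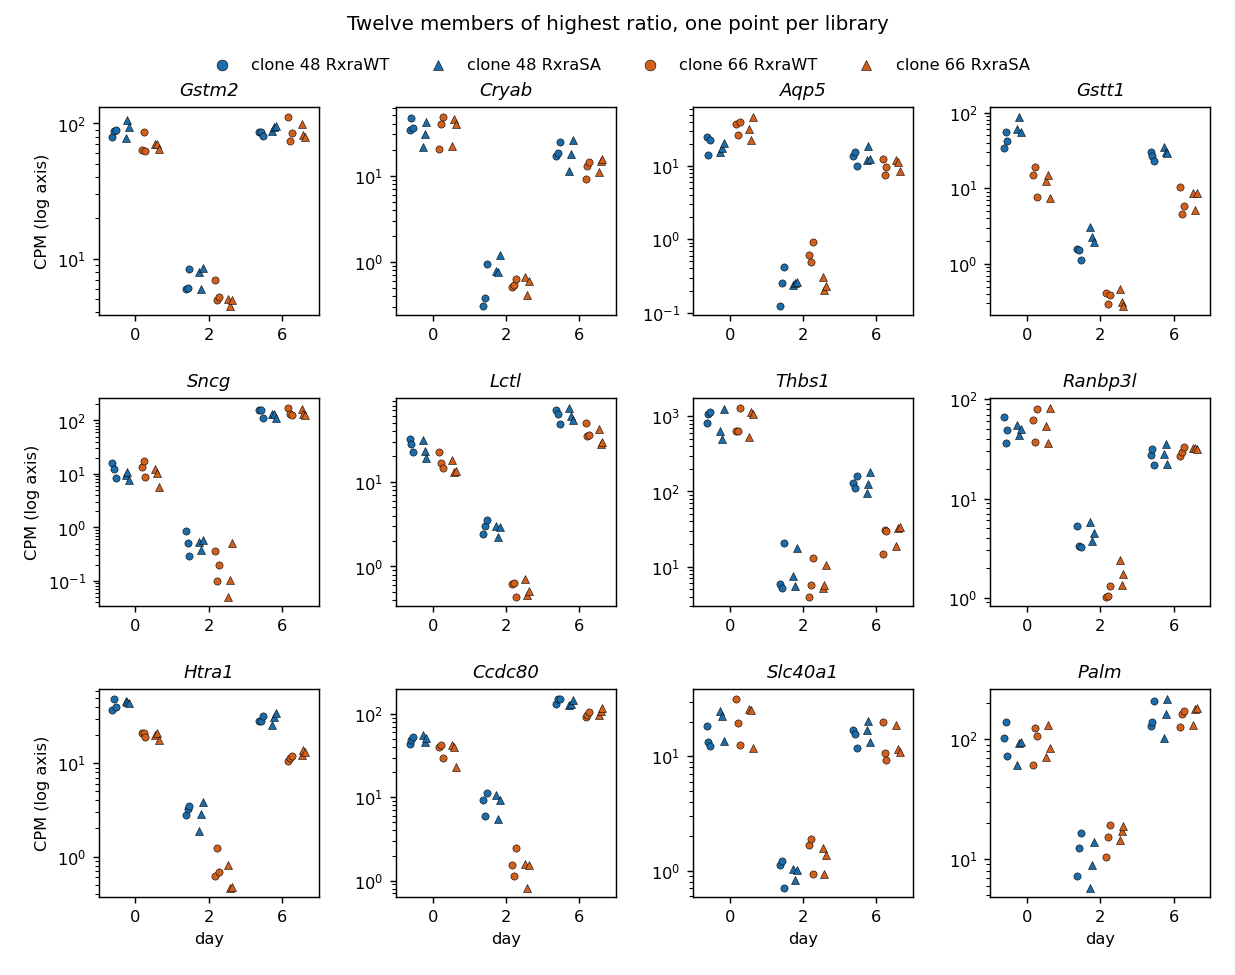
CPM (log axis) of the 12 members of highest ratio by day, with 1 point per library, clones in colour (clone 48 blue, clone 66 orange) and genotypes by symbol (RxraWT circles, RxraSA triangles). Day 2 points lie below those of both other days in each panel except Thbs1, where the day 6 points of clone 66 reach down to 14.5 CPM and the day 2 points of clone 48 up to 20.6 CPM.

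Regulators were spread over several families. Among 10 transcription and chromatin genes were Dbp, an output gene of the circadian clock, with medians of 22.1, 4.88 and 24.4 CPM, and Hdac5, a class II histone deacetylase, with 129, 13.1 and 69.8 CPM. Tead2, a DNA-binding partner of the co-activator YAP, had medians of 34.2, 3.79 and 18.3 CPM. A further 11 members were small GTPases or their regulators. Rhoq, a GTPase linked to insulin-driven glucose uptake, ran from 57.7 to 72.4 CPM at day 2 against 173 to 262 CPM at day 0 and 263 to 319 CPM at day 6. Single members came from other pathways. They were Lfng, which modifies Notch receptors (medians of 26.2, 4.68 and 71.9 CPM), Fas, the death receptor (11.5, 2.63 and 10.8 CPM), and Ier3, an immediate early gene (17.5, 4.07 and 15.0 CPM). Sema4c, a semaphorin (16.9, 5.66 and 17.6 CPM), and the hypoxia-responsive Ndrg1 (143, 20.5 and 127 CPM) and hexokinase gene Hk1 (95.8, 29.8 and 96.2 CPM) belonged to them too. Hk1 differed more among libraries than the others, with overlapping ranges of 44.5 to 236 CPM, 13.8 to 63.5 CPM and 30.7 to 207 CPM.

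Genes of the interferon response and of antigen presentation formed the largest group, with 15 members and a median ratio of 3.11. Interferons drive many of these genes through the interferon-stimulated response element (ISRE) in their promoters. Ifit2, which restrains viral translation, ran from 205 to 327 CPM at day 0, from 5.30 to 8.86 CPM at day 2 and from 17.9 to 29.2 CPM at day 6. Ddx58, the RNA sensor RIG-I, had medians of 80.6, 12.1 and 47.4 CPM, and Bst2, the virus-tethering protein tetherin, of 20.3, 5.26 and 19.6 CPM. Tapbp, the tapasin that loads peptides onto class I molecules, ran from 109 to 183 CPM, from 30.1 to 81.4 CPM and from 83.7 to 189 CPM. H2-T23, a non-classical class I molecule, ran from 15.2 to 143 CPM, from 13.2 to 21.1 CPM and from 72.3 to 152 CPM, so that its day 0 range overlapped that of day 2. Of these 5, H2-T23 was the one whose day 2 range overlapped that of another day. Parp9 and Dtx3l, partners in one ubiquitin ligase complex, had medians of 28.7, 6.18 and 31.4 CPM and of 14.1, 2.96 and 14.4 CPM. They lie head to head on chromosome 16 and overlap. The counting took no account of strand and left out read pairs of several genes, so their values may not be fully independent.

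RefSeq promoters of GRCm38.p6, each of 300 bases from 250 before to 50 after a start, were found for 118 of the 147 members, 162 promoters in all. The ISRE, searched on both strands as GAAA, any 2 bases and GAAA, was in 14 of them (8.64%), against 3.44% of all 32851 promoters and 2.77% of the 8858 promoters of the ranked genes. Of the 14 members with a match 7 belong to the interferon group (H2-T23, H2-T22, Ddx58, Lgals9, Bst2, Psme1 and Ifitm3), and the others include Gstt1, Ranbp3l, Akr1c14 and Mylk. This motif was chosen for display after its share had been seen. The windows below lie upstream of the RefSeq start used, are written 5′ to 3′ on the gene's strand and carry the match in capitals. That of H2-T23 overlaps an annotated exon and lies within the GENCODE gene (positions 36029773 to 36032855), so it is not upstream of every annotated start. In Bst2 (chr8:71537562-71537621, minus strand) 2 matches overlap, and in H2-T23 (chr17:36032806-36032835, minus strand) and Lgals9 (chr11:78984960-78984989, minus strand) the match is on the opposite strand.
Bst2: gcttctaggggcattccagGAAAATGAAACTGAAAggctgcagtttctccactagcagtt
H2-T23: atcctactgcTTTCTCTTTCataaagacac
Lgals9: tgacatcagcTTTCTTTTTCtctagacact

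The interferon genes outside the members followed a like course. Of a list of 45 interferon-response genes, 6 were members and 34 others had enough counts to be tested. At day 2 against day 0, 30 of the 34 were lower and 3 higher, with a median log2 difference of -2.45 (edgeR's quasi-likelihood test, adjusted p under 0.05), where 37.5% of all tested genes were lower and the median over genes outside the members was -0.01. From day 2 to day 6, 30 of the 34 rose and 2 fell, with a median log2 difference of 2.07, where 31.9% of all tested genes rose. In 28 of the 34 genes (82.4%) both steps passed the test, against 18.2% of the 16576 tested genes outside the members. Ifit1 ran from 21.7 to 105 CPM at day 0, from 0 to 0.435 CPM at day 2 and from 0.661 to 3.71 CPM at day 6. The genes of this list with the most counts differed in part. B2m, the class I light chain, fell by 0.46 on the log2 scale (SE 0.13, adjusted p = 0.0022, edgeR) and then rose by 1.73 (SE 0.13, adjusted p = 2.52e-13). H2-D1, a classical class I heavy chain, rose in both steps, by 1.19 (SE 0.12, adjusted p = 8.29e-11, edgeR) and by 2.00 (SE 0.12, adjusted p = 6.83e-16). The 7 macrophage markers examined summed to 7.34 to 13.8 CPM at day 0, 2.53 to 5.60 CPM at day 2 and 5.04 to 11.9 CPM at day 6, most of it from Cd68, and 4 of the 7 stayed under 1 CPM in every library. All 14 glucocorticoid-induced genes of a further list were tested, and 13 of them were higher at day 2 than at day 0 and 10 lower at day 6 than at day 2, against 35.8% and 30.1% of all tested genes. Of 28 inflammatory genes tested, 21 were lower and 4 higher at day 2, and 12 rose and 9 fell to day 6. Both steps of the dip passed in 32.1% of these 28, near the 30.45% over the genes of all lists. Whether dexamethasone bears on any of these genes was not tested.

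**Figure D4:**
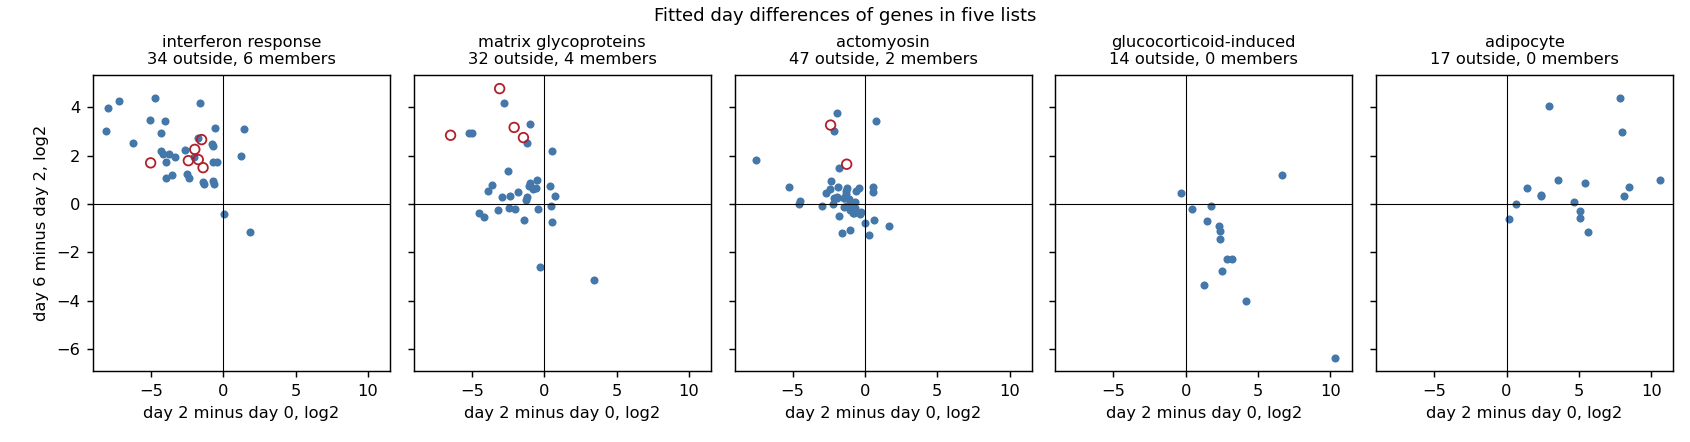
Each panel shows 1 list of genes, with the fitted log2 difference of day 2 minus day 0 on the x axis and of day 6 minus day 2 on the y axis. Filled points are genes outside the members and open red circles are members; the upper left part of a panel holds genes that were lower at day 2 than on both other days, which the rule fixes for members and which 28 of the 34 other interferon genes passed in both tests.

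Of 32 matrix glycoprotein genes outside the members, 23 were lower and 6 higher at day 2 than at day 0 (median log2 difference -1.22), and 14 rose and 5 fell from day 2 to day 6 (median 0.43). Both steps of the dip passed the test in 11 of them (34.4%), against 18.2% of the tested genes outside the members. Over the genes of all lists examined the share was 30.45%, so that of the matrix genes was near it. Vcan, the proteoglycan versican, moved the other way, with medians of 260, 2547 and 288 CPM, and Sparc, a collagen-binding protein, had medians of 816, 450 and 665 CPM. Of 47 actomyosin genes outside the members 40 were lower at day 2 (median -1.24), while 17 rose and 11 fell by day 6 (median 0.14). Of all tested genes 37.5% were lower at day 2 and 31.9% rose to day 6, so that the share of actomyosin genes that rose was near that of all genes. In all, 23 of the 147 members were on any of the 34 lists examined. Scaling by library size alone moved the median log2 difference of all genes from day 0 to day 2 by -0.26, and the share of all calls that were higher at day 2 from 48.9% to 33.6%. The day differences are to be read relative to that shift, which turned the direction of no member.

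The promoters were searched for 14 motifs in all. The share of promoters with a match differed most from that of all promoters for the GC box (GGGCGG), at 55.6% against 35.7%, but the promoters of the ranked genes held it in 67.2%. The NF-kB motif was in 17.9% of the member promoters, in 9.12% of all and in 10.5% of those of ranked genes. The TEAD motif (GGAATG) was in 18.5% of the member promoters, in 14.7% of all and in 11.1% of those of ranked genes. The CArG box, by which serum response factor is known to drive muscle and actin genes, was found in the promoters of 1 member, Ldb3, which encodes a Z-disc protein. TEAD matches are shown for the 3 members of highest ratio with a match upstream of the start, Gstm2 (chr3:107986502-107986561, minus strand), Palm (chr10:79793419-79793478, plus strand) and Mylk (chr16:34784765-34784824, plus strand), and the CArG box for Ldb3 (chr14:34588697-34588726, minus strand), all upstream of the start.
Gstm2: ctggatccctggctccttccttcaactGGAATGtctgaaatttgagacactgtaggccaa
Palm: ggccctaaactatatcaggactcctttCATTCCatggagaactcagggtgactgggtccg
Mylk: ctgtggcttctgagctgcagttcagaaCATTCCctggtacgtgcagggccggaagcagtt
Ldb3: gggttacagtCCATTTATGGgcgcagcaag

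Some members are neighbours in the genome. With at most 100000 bases between genes, 11 adjacent pairs of members were found, among them Gstt3 and Gstt1 on chromosome 10, C1rl and C1ra on chromosome 6, H2-T23 and H2-T22 on chromosome 17 and the Fads genes. C1ra, a protease of the first complement component, ran from 47.3 to 138 CPM at day 0 and from 1.55 to 3.38 CPM at day 2, and had a median of 15.4 CPM at day 6. Exons of 50 members overlapped another annotated gene, 44 of them a gene on the opposite strand. The median exon length of the members was 4227 bases, against 4846 bases for the ranked genes.

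Whether the phosphorylation site of RXRα bears on the dip was asked by comparing RxraSA with RxraWT, a contrast that the choice of genes did not use. No member was called on any day or in the change between days (0 of 147, edgeR's quasi-likelihood test), and none of all 16723 genes was (0%). At an unadjusted p under 0.05 there were 1, 2 and 0 members at days 0, 2 and 6, where 0.831%, 0.969% and 0.747% of all genes passed. The changes between days had 0 and 1 such members (day 0 to 2 and day 2 to 6), where 0.861% and 0.915% of all genes passed. In a fit that paired same-numbered libraries within each day no member was called, and 1 gene of all was, at day 2 (0.00598%). At an unadjusted p under 0.05 that fit had 8, 9 and 5 members at days 0, 2 and 6, and 704, 692 and 477 of all genes. DESeq2 called no gene, with 0, 2 and 0 members at an unadjusted p under 0.05 at days 0, 2 and 6. Of all 16723 genes, 116 passed that limit in DESeq2 at day 0 and 130 at day 2. By fitted value all 147 members were lower at day 2 than on both other days in each genotype, a direction that the choice of genes largely fixes. The median fall was -2.19 on the log2 scale in RxraWT and -2.24 in RxraSA, and the median return 2.00 and 1.97. The values below come from the edgeR fit without pairing of same-numbered libraries. These libraries deviated together, so the standard errors and p-values of that fit may be too large. At day 2 the fitted differences of RxraSA minus RxraWT ran from -0.94 to 0.52 over the members, with a median standard error of 0.20 that limits what could be seen. Aqp5 had the lowest of them, -0.94 (SE 0.44, edgeR adjusted p = 1, unadjusted p = 0.042). Lgals9, a galectin induced by interferon, had 0.32 (SE 0.13, edgeR adjusted p = 1, unadjusted p = 0.020). Lars2 had 3.88 at day 0 (SE 1.91, edgeR unadjusted p = 0.050) and 0.39 (SE 1.41, edgeR unadjusted p = 0.79) without the library that stood apart.

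The clones differed in many members. At day 0, 60 of the 147 members were called between clone 66 and clone 48 (40.8%, edgeR's quasi-likelihood test, adjusted p under 0.05), against 23.7% of all tested genes and 24.7% of the ranked genes. At day 2, 75 members were called (51.0%), against 30.0% and 32.5%, and at day 6, 66 members (44.9%), against 26.2% and 27.8%. At day 0, 23 members were higher in clone 66 (12.6% of all genes) and 37 lower (11.1%). At day 2, 38 were higher (14.5% of all genes) and 37 lower (15.5%), and at day 6, 34 were higher (13.4%) and 32 lower (12.8%). The difference held one direction on all 3 days in 27 members, 11 of them higher in clone 66 and 16 higher in clone 48, and these 27 are 18.4% of the members, against 10.1% of all tested genes and 11.2% of the ranked genes. On no day were 42 members called (28.6%), against 53.4% and 51.4%. The clone fit took all libraries as independent, although same-numbered libraries of both genotypes deviated together (correlations 0.18 to 0.93). Its p-values here and below may therefore be too small, and its counts too high. The choice of genes used means over both clones, and only 86 of the 147 members were in the lists of each clone alone. These shares are thus not free of the choice of genes. By fitted value every member was lower at day 2 than on both other days in each clone, which the choice of genes by the means over both clones largely fixes. For Lars2 in clone 48 this direction rested on the library that stood apart: without it the day 0 mean was 65.7 CPM, against 132.5 CPM at day 2.

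Glutathione transferases and a regulator of small GTPases were among the genes with the smallest adjusted p. Gstt3 ran from 16.9 to 30.8 CPM in clone 48 and from 3.14 to 4.50 CPM in clone 66 at day 0, from 3.00 to 4.49 CPM and from 0.374 to 0.594 CPM at day 2, and from 20.1 to 27.7 CPM and from 3.53 to 6.22 CPM at day 6. The clones did not overlap on any day, and the log2 difference at day 2 was -2.71 (SE 0.16, adjusted p = 4.61e-14, edgeR). Its neighbour Gstt1 ran from 34.4 to 88.2 CPM in clone 48 and from 7.38 to 19.1 CPM in clone 66 at day 0 (log2 difference -2.09, SE 0.20, adjusted p = 3.9e-09, edgeR). Arhgef6, an exchange factor for Rac and Cdc42, had clone medians of 50.7 and 11.1 CPM at day 0, 6.74 and 1.89 CPM at day 2 and 28.2 and 10.1 CPM at day 6. Crip2, a LIM domain protein, had medians of 9.99 CPM in clone 48 and 0.436 CPM in clone 66 at day 2 (log2 difference -4.45, SE 0.33, adjusted p = 1.41e-11, edgeR), and ranged from 0.187 to 0.792 CPM in clone 66, on few counts. Lgals9 was the other way round, with medians of 6.40 and 13.3 CPM at day 2 and 25.5 and 46.8 CPM at day 6. Ly6e, a surface protein induced by interferon, had 35.7 and 16.4 CPM at day 6 (log2 difference -1.19, SE 0.11, adjusted p = 2.05e-09, edgeR). Nipsnap1, a mitochondrial protein, had 7.03 and 23.1 CPM at day 0 and 19.5 and 21.9 CPM at day 6, so that its clones overlapped at the end. The minimum of 10 CPM applied to means over both clones. Gstt3 and Crip2 stayed below it in every clone 66 library (Crip2 at most 8.06 CPM) and entered the ranking only through clone 48. Gstt1 and Rasl11a at day 6 (clone 66 medians 7.21 and 7.42 CPM) and Nipsnap1 at day 0 also had 1 clone below it. The clone differences of these genes are thus not free of the choice of genes.

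The depth of the dip also differed between clones. The change from day 0 to day 2 differed between them in 38 members (25.9%), against 6.84% of all tested genes and 7.69% of the ranked genes. The members were chosen for large changes, with a median absolute log2 change of 2.21 against 0.50 for the ranked genes. The shares in this paragraph are therefore not set against genes of like change, and a very deep dip in 1 clone helps a gene into the list. With each replicate number of a clone as a block over days and genotypes, 58 members were called, against 13.4% of all genes. Whether same-numbered libraries of different days belong together was not examined. The difference of clone 66 minus clone 48 was above 0 in 20 of the 38 (3.61% of all genes) and below 0 in 18 (3.23%). The change from day 2 to day 6 differed in 37 members (25.2%), against 6.18% and 6.43%, and was above 0 in 18 (3.15% of all genes) and below 0 in 19 (3.03%). With the blocks the change from day 2 to day 6 differed in 54 members, against 12.4% of all genes. The count of 37 was 21 without replicate 2 of clone 48, against 3.20% of all genes, and 22 without replicate 2 of clone 66, against 3.35%. In 20 members (13.6%) both steps differed, against 2.66% of all tested genes and 3.14% of the ranked genes. The steps share the day 2 libraries, so that opposite signs are built in, and 432 of the 445 genes called in both steps had them. By fitted value the dip was deeper in clone 66 in 11 of the 20 members and in clone 48 in 9.

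Mylk and Nrep dipped deeper in clone 48. Mylk ran from 23.9 to 45.6 CPM at day 0 and from 1.84 to 3.27 CPM at day 2 in clone 48, and from 10.9 to 18.6 CPM and from 3.37 to 5.53 CPM in clone 66, so that the order of the clones turned between these days. Its fall was smaller in clone 66 by a log2 difference of 1.92 (SE 0.20, adjusted p = 1.68e-07, edgeR). Nrep, a small neuronal regeneration protein, had medians of 22.9, 1.09 and 48.7 CPM in clone 48 and 32.0, 7.64 and 43.9 CPM in clone 66. Ccdc9b, Slc46a3, a lysosomal transporter, and Cldn15 also fell less in clone 66, by log2 differences of 1.83, 1.20 and 1.19. For Cldn15 the clone medians were 180 and 216 CPM at day 0, 35.0 and 98.2 CPM at day 2 and 469 and 715 CPM at day 6.

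Ccdc80, Ndrg1 and Rasl11a dipped deeper in clone 66. Ccdc80 ran from 5.55 to 11.3 CPM at day 2 in clone 48 and from 0.825 to 2.49 CPM in clone 66, and the difference in its fall was -2.01 (SE 0.26, adjusted p = 4.17e-06, edgeR). Ndrg1 had medians of 152 and 138 CPM at day 0, 31.3 and 14.3 CPM at day 2 and 80.3 and 152 CPM at day 6. Its return was larger in clone 66 by a log2 difference of 1.89 (SE 0.20, adjusted p = 1.91e-07, edgeR). Rasl11a, a Ras-like GTPase, had medians of 134 and 54.5 CPM at day 0, 3.64 and 0.426 CPM at day 2 and 13.3 and 7.42 CPM at day 6. Its clone 66 values at day 2, from 0.206 to 0.768 CPM, rest on few counts. In clone 66 its day 6 level lay below the minimum of 10 CPM, so its clone differences are not free of the choice of genes.

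**Figure D5:**
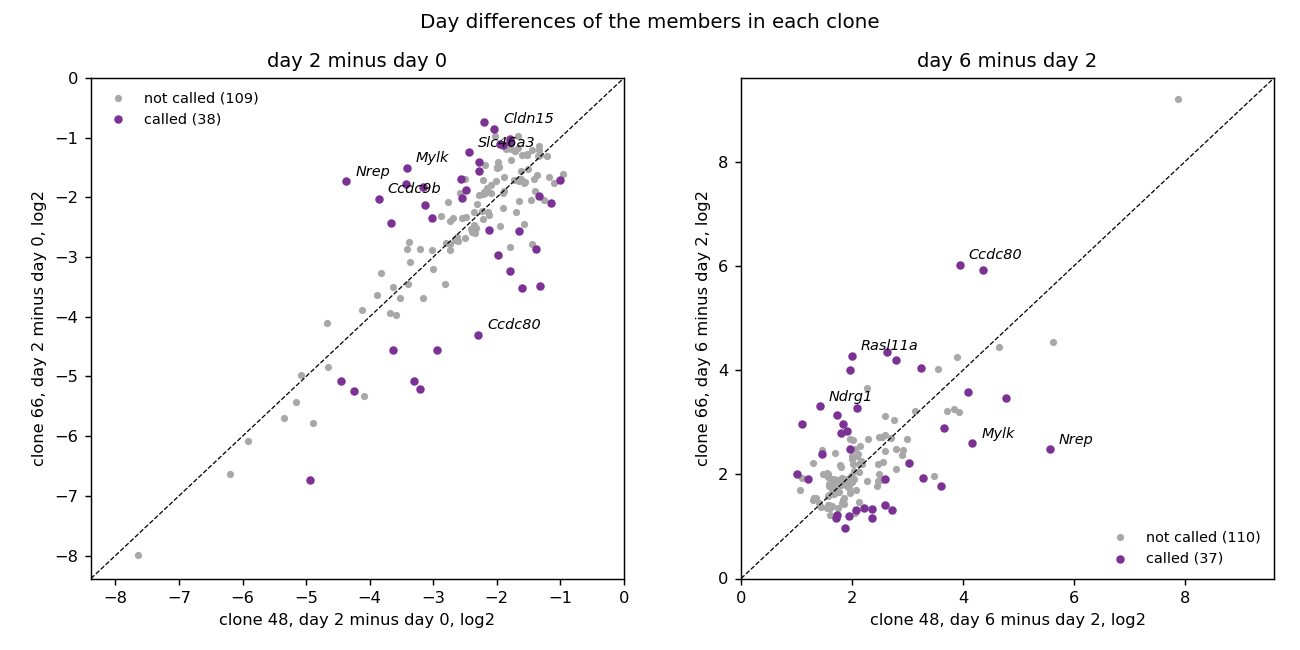
Each point is 1 of the 147 members, placed by its fitted log2 difference in clone 48 (x axis) and in clone 66 (y axis), for day 2 minus day 0 on the left and day 6 minus day 2 on the right. Purple points are genes whose 2 differences differed from each other by edgeR's quasi-likelihood test (38 on the left, 37 on the right), and the dashed line marks equal differences; all points lie below 0 on the left and above 0 on the right.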

How the data were processed

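RNA was sequenced in 36 libraries. The authors aligned reads to GRCm38 with STAR 2.7.0d, counted read pairs on GENCODE M21 exons with featureCounts 1.6.2, without strand and without pairs of several genes or places, and deposited raw counts. All 55536 identifiers matched GENCODE M21. Groups came from the sample labels. The deposited description calls the 3 replicates technical, whereas the study's methods speak of independent culture replicates, so p-values may or may not cover more than technical spread. No replicates were duplicates (chi-square per degree of freedom at least 12.0).

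Members and lists were chosen with earlier results of these data known. Named genes were the 12 of highest ratio, the members and other genes of each list with the most counts, the smallest adjusted p-values per contrast, and the extremes of the ranking and of the ratio of day 6 to day 0. Others were chosen after their values were seen.

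edgeR 4.0.16 (filterByExpr, TMM, quasi-likelihood test, R 4.3.3) fitted 16723 genes. Genotype and day contrasts used genotype by day groups with a clone term, as in the study's methods, and clone contrasts 12 groups. Genes with a Benjamini-Hochberg adjusted p under 0.05 were called. Same-numbered libraries of both genotypes deviated together (18 pairs, 9381 genes, correlations 0.18 to 0.93), so the numbers were taken to pair them. CPM was the count divided by the library total and scaled to a common total. Fits were tested on simulated counts. DESeq2 1.42.0, RLE factors, library size alone, no filter, replicate blocks and omitted replicates were alternatives. Tables used python 3.11.15 and pandas 2.3.3. For genes with few counts counting error limits the precision. Some results are not reported here.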

Additional observations from a re-analysis of the deposited data

Results flagged for a closer look

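Among 102 groups of 6 libraries (clone by day, for the 16 members named in the clone comparisons and for the summed level of the members), 3 had a library far from the others, and chance alone marks about 1 in 20 such groups. At day 0 in clone 48 the summed level was 42045 CPM in RxraSA replicate 1, where the next highest library had 12554 CPM, and Lars2 held 30572 CPM of it. Ccdc9b had 2.72 CPM at day 2 in clone 48 RxraWT replicate 3, where the next library had 2.16 CPM. Gstt3 had 0.374 CPM at day 2 in clone 66 RxraSA replicate 3, where the next had 0.516 CPM.

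The change between days differed between the clones by edgeR's test of the interaction, with log2 values of clone 66 minus clone 48 as follows. From day 0 to day 2 the difference was 1.92 for Mylk, 1.83 for Ccdc9b, 1.20 for Slc46a3, 1.19 for Cldn15, 2.64 for Nrep and -2.01 for Ccdc80. From day 2 to day 6 it was -3.08 for Nrep, 1.89 for Ndrg1, 2.08 for Ccdc80, -1.57 for Mylk and 2.28 for Rasl11a. Clone and sequencing pool cannot be told apart in these values. Rasl11a had a clone 66 median of 7.42 CPM at day 6, below the minimum of the ranking, so its value is not free of the choice of genes.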

How the results depend on the processing

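Of 582 values recomputed under alternatives, 578 kept their direction and their side of the threshold or, for counts, stayed within 1.5 times. The 4 others were as follows. With a minimum of 20 CPM the ranking shared 93 of the 147 members, since fewer genes could enter it. With the replicate block, 58 members in place of 38 were called for the difference between clones in the change from day 0 to day 2, and the block moved no other count of members called by over 1.5 times, while the share of all genes called for the change from day 2 to day 6 went from 6.18% to 12.4%. At an unadjusted p under 0.05 the block gave 3 members in place of 1 between genotypes at day 0, and 263 in place of 139 of all genes; the contrasts of the clones at one day had no such fit. For the change from day 2 to day 6, leaving out replicates gave 21 to 35 members in place of 37, with 21 without clone 48 replicate 2 and 22 without clone 66 replicate 2; fewer samples then entered the fit. None of the 323 values of single genes lost its call or changed sign. The level of Lars2 at day 0 did rest on 1 library, clone 48 RxraSA replicate 1. Without it the clone 48 mean was 65.7 CPM at day 0, against 132.5 CPM at day 2. Of the members, 133 stayed in the ranking on TMM-scaled values, 86 were in the lists of each clone alone, 128 in those of each genotype alone and 124 in every list that left out 1 library. The omission of clone 48 RxraSA replicate 1 at day 0 and the promoters of ranked genes were added after seeing the data.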
